A study of Mus musculus with 22 samples.

Results

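S40A is a form of the transcription factor CREB in which the serine that carries its sugar is replaced by alanine, so that it cannot be glycosylated there. It was compared with GFP across genes in neurons that had carried either virus for 8 h. The comparison holds the 8 libraries labelled S40A or GFP at 8 h, 4 of each, out of 22 in the series, and libraries with the same replicate number were paired. All were mouse cortical neurons of C57BL/6 background and Creb1-/- genotype, taken at embryonic stage E16.5 and used after 7 days in culture. Both groups, and every other library used below, were silenced with tetrodotoxin (TTX, 1 µM, a blocker of sodium channels) and D-AP5 (100 µM, a blocker of NMDA receptors). A herpes simplex virus supplied GFP or S40A CREB for 8 h, and 55 mM KCl depolarized the neurons for 2 h. There was no library without depolarization, so the response to depolarization itself was not measured here. The neurons were silenced before the virus was added. The deleted part of Creb1 was not stated in the labels, and nothing in the labels says that replicates came from separate cultures, so p-values measure the spread between these libraries, which may be technical.

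CREB binds a palindromic DNA element, the cAMP response element (CRE), in the promoters of activity-regulated genes. Depolarization lets calcium into the neuron, and kinases then phosphorylate CREB at another serine, which recruits the coactivators CBP and p300. O-linked N-acetylglucosamine (O-GlcNAc) is a single sugar that the transferase Ogt attaches to nuclear and cytoplasmic proteins, CREB among them. Immediate early genes such as Fos and Npas4, and secreted peptides such as somatostatin (Sst), are classical CREB-linked genes in neurons.

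Levels are fragments corrected for transcript length and library depth (FPKM), scaled between libraries, and differences are S40A minus GFP on the log2(scaled FPKM + 1) scale, where the added 1 shrinks differences of low genes. Of 24490 gene entries, 12097 with a mean of at least 1 FPKM were tested with limma, and a gene is said to have risen or fallen only at an adjusted p under 0.05 over all of them. The files give no read counts. Read as counting error alone, the 95% bounds that come with each FPKM value imply a median over tested genes of 501 to 926 fragments in these 8 libraries. For Creb1 they imply 1124 to 1610 fragments in GFP and 2300 to 2335 in S40A, a far smaller change than that of its level given below. The bounds thus hold more than counting error at least for this gene, and the implied numbers are only a rough guide to depth. Replicate 2 of GFP stood apart. Its highest correlation with any other library was 0.930, against 0.988 to 0.996 in the other 7 libraries, and 151 genes in it were at least 8-fold above all 7 others, 31 of them ribosomal protein genes. The first value given for a gene or list is from all 8 libraries, and the main ones are given again without that one. Replicate 3 of GFP was the lowest library for many depolarization-induced and sterol genes, as described with those groups.

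Creb1, the gene carried by the virus, rose in the S40A libraries and was the only gene called in the fit of the 12 libraries at 8 h, which also holds wild-type (WT) CREB. It stands on chromosome 1 from 64532804 to 64604548 (mm10). In GFP replicates 1 to 4 it was at 12.3, 9.56, 14.9 and 11.2 scaled FPKM, and in S40A replicates 1 to 4 at 866, 1159, 569 and 2306. Every S40A library lay far above every GFP library, and S40A replicate 4 carried the most and replicate 3 the least. The log2 difference was 6.38 (SE 0.36, adjusted p = 0.00268 by limma), an 83.5-fold rise with a 95% interval of 46.4 to 150.3. Without GFP replicate 2 it was 6.24 (SE 0.42, adjusted p = 0.0392). In a fit of the 8 libraries alone Creb1 was not called (6.38, adjusted p = 0.223), and with GFP replicate 2 omitted, leaving out 1 more library ended the call in 6 of 7 cases, at differences of 5.94 to 6.68. An exact two-sided permutation test over 4 against 4 libraries gave p = 0.0286, the smallest that it can give. The level in GFP libraries does not check the genotype, because reads from any part of the gene that was not deleted would count towards it.

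**Figure D1:**
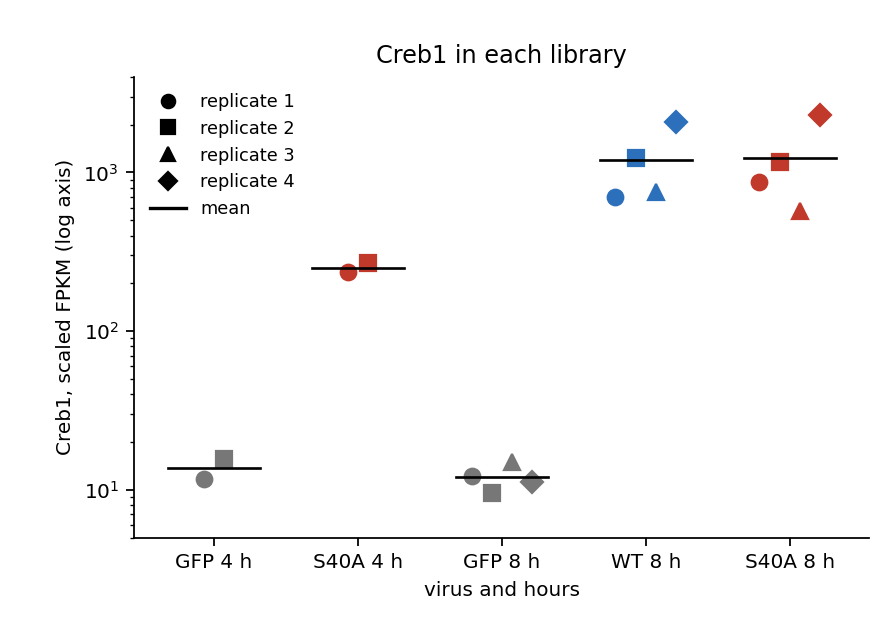
Creb1 level in scaled FPKM on a log axis for each library that received GFP or S40A at 4 h and GFP, WT CREB or S40A at 8 h, with 1 marker shape for each replicate number and a line at the group mean. The 4 S40A libraries at 8 h lie between 569 and 2306, and the 4 GFP libraries between 9.56 and 14.9.

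With all 8 libraries 1 of the 12097 genes was called, 0.00827% of those tested, and without GFP replicate 2 the same share was called. Both calls were Creb1. Before adjustment, 1181 genes (9.76%) had a p under 0.05, 716 higher in S40A (5.92%) and 465 lower (3.84%). In the fit that omits GFP replicate 2 there were 1380 (11.4%), 796 higher (6.58%) and 584 lower (4.83%). The estimate was above 0 for 52.3% of genes with all libraries and for 52% without that one, and the median over all genes was 0.01 in both. The genes below other than Creb1 did not pass the test and are described by their values.

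The genes described next had the same sign in all 4 pairs, and all but Prkacb, fixed by name, were chosen for a small p in the fit without GFP replicate 2, which is not a choice by the size of the difference. Such agreement over all 4 pairs was met by 1174 of the tested genes in the higher direction (9.7%) and 951 in the lower (7.86%), and agreement over the 3 pairs without replicate 2 by 15.7% and 14.3%. Pkia, an inhibitor that binds and blocks the catalytic part of protein kinase A, was measured at 68.6, 45.5, 57.3 and 49.0 scaled FPKM in GFP replicates 1 to 4 and at 80.8, 68.2, 83.1 and 61.8 in S40A. Each S40A library was above the GFP library of its number, although GFP replicate 1 lay above S40A replicates 2 and 4. The difference was 0.42 (SE 0.06, adjusted p = 0.395), and 0.36 without GFP replicate 2 (adjusted p = 0.396). Gnai1, an inhibitory G-protein alpha subunit, had a difference of 0.26 and Sstr1, a somatostatin receptor that signals through such proteins, of 0.41 (0.24 and 0.51 without GFP replicate 2). Prkacb, which encodes the beta form of the kinase's catalytic subunit, was at 83.6, 94.9, 79.4 and 80.6 in GFP and at 147, 127, 107 and 93.1 in S40A. All S40A libraries but replicate 4 were above all GFP libraries, and replicate 4 lay just under GFP replicate 2. Its difference was 0.47 (SE 0.10, adjusted p = 0.395), and 0.50 without GFP replicate 2.

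The other higher genes of this kind had varied roles. Reep5, a protein that bends endoplasmic reticulum membrane, stood at 88.8, 81.7, 103 and 101 scaled FPKM in GFP and at 120, 109, 130 and 114 in S40A. The groups did not overlap, which was true of 244 tested genes in this direction (2.02%) and of 138 in the other (1.14%). Its difference was 0.34 (SE 0.05, adjusted p = 0.395), and 0.32 without GFP replicate 2. Araf, a kinase of the MAP kinase cascade, was at 0.27, Atp6ap1, an accessory subunit of the proton pump of acidic organelles, at 0.24, and Ifngr2, a chain of the interferon gamma receptor, at 0.24. Timm10b, a chaperone of mitochondrial protein import, was at 0.44, Smim13, a small membrane protein, at 0.36, and Enpp5, a membrane-bound phosphodiesterase family member, at 0.35.

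The same rule named 12 lower genes. Khsrp, which binds AU-rich elements in RNA, stood at 69.3, 64.2, 58.2 and 66.9 scaled FPKM in GFP and at 54.6, 55.9, 46.3 and 58.2 in S40A, with a difference of -0.26 (SE 0.05, adjusted p = 0.395), or -0.28 without GFP replicate 2. Srrt, a factor of capped RNA processing, was at -0.31, Sart3, a recycling factor of the spliceosome, at -0.26, and Srrm1, a splicing coactivator, at -0.21. Hspa1a and Hspa1b are described below, and the other 6 were Amotl2 at -0.38 and Pxn, the focal adhesion adaptor paxillin, at -0.29, Npr2, a natriuretic peptide receptor, at -0.22, Trerf1, a transcriptional regulator, at -0.33, Nckap5l at -0.35 and C2cd4b at -0.38. Their adjusted p lay between 0.395 and 0.417.

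Hspa1a, an inducible chaperone of the Hsp70 family, stood at 17.1, 90.0, 17.9 and 19.2 scaled FPKM in GFP and at 10.5, 12.8, 10.1 and 15.3 in S40A. GFP replicate 2 was far above the rest, and the lowest GFP library was still above the highest S40A library. The difference was -1.11 (SE 0.39, adjusted p = 0.460) with that library and -0.59 (SE 0.10, adjusted p = 0.396) without it. Hspa1b, its near-identical neighbour, whose reads may be shared with it, went from -1.01 to -0.73. Of 18 heat shock chaperones 5 were above 0 and 13 below, and without GFP replicate 2 these were 7 and 11, with medians of -0.14 and -0.07.

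**Figure D2:**
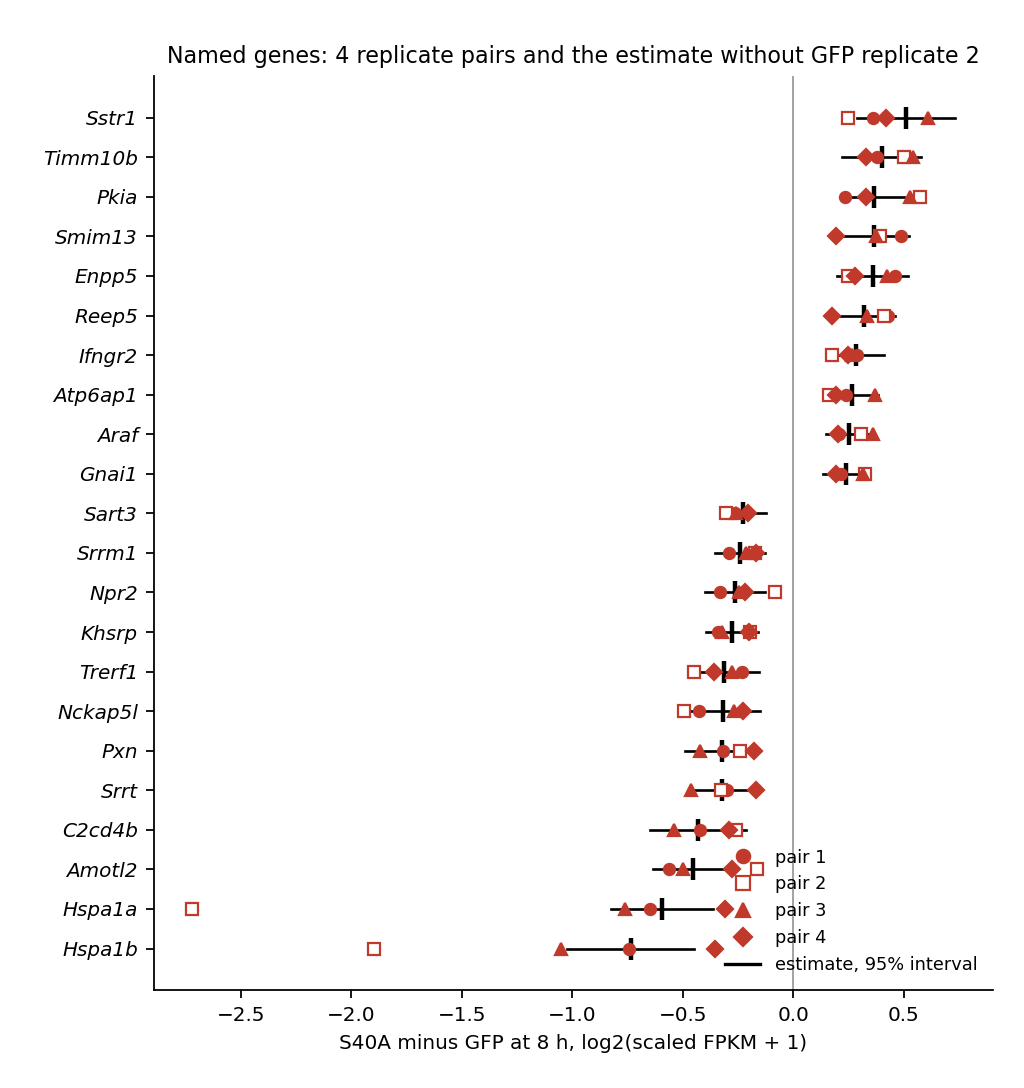
S40A minus GFP at 8 h on the log2(scaled FPKM + 1) scale for 10 higher genes other than Creb1 and 12 lower genes chosen for a small p without GFP replicate 2 among those with 1 sign in all 4 pairs, with 1 marker for each replicate pair (pair 2, open, holds GFP replicate 2) and a bar for the estimate without GFP replicate 2 and its 95% interval. Pair 2 stands far from the others for Hspa1a and Hspa1b, and the other genes have all 4 markers on 1 side of 0.

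Nuclear-encoded subunits of the respiratory chain, which carries electrons to oxygen and makes ATP in mitochondria, were mostly higher in S40A by a small amount. Of 50 measured genes 44 were above 0 (88%, median 0.15), 14 of them at an unadjusted p under 0.05 (28%), and 0 were called. Without GFP replicate 2 all 50 were above 0 (median 0.19), 21 at an unadjusted p under 0.05 (42%). Over all tested genes 52.3% were above 0 and 9.76% had such a p, or 52% and 11.4% without GFP replicate 2. Uqcrfs1, the iron-sulfur subunit of complex III, stood at 69.0, 67.6, 82.5 and 76.6 scaled FPKM in GFP and at 94.8, 89.9, 91.2 and 85.9 in S40A, and the groups did not overlap. Ndufs8, an iron-sulfur subunit of complex I, was at 36.6, 44.6, 40.9 and 45.9 in GFP and at 49.1, 46.0, 50.6 and 48.4 in S40A, again without overlap. Their differences were 0.29 and 0.21 with unadjusted p of 0.00623 and 0.0193 by limma, and 0.28 and 0.26 without GFP replicate 2. The list median was not alike in the 4 pairs, at 0.35, -0.01, 0.14 and 0.08 in pairs 1 to 4. Ndufs3, a core subunit of complex I, was at -0.04 with GFP replicate 2, where it stood at 46.9 against 21.3 to 23.9 in the other GFP libraries, and at 0.23 without it.

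Genes of synaptic vesicles and transmitter release showed the same direction. Of 35 measured genes 31 were above 0 (88.6%, median 0.21), 5 at an unadjusted p under 0.05 (14.3%, against 9.76% of all tested genes) and 0 called. With GFP replicate 2 left out these numbers were 32 (91.4%, median 0.28), 13 (37.1%, against 11.4%) and 0. Snap25, a membrane fusion protein of the release machinery, stood at 120, 126, 130 and 146 scaled FPKM in GFP and at 173, 146, 151 and 159 in S40A. The groups did not overlap, but the lowest S40A value (replicate 2, 145.6) and the highest GFP value (replicate 4, 145.5) nearly met. The difference was 0.27 (SE 0.09, adjusted p = 0.458), and 0.25 without GFP replicate 2. Syt1, the calcium sensor of release, was at 42.7, 62.6, 42.3 and 44.2 in GFP and at 83.3, 63.6, 65.9 and 51.6 in S40A. GFP replicate 2 reached the S40A range, and the difference of 0.45 with it was 0.55 without it (SE 0.16, adjusted p = 0.401). Napb, a factor that recycles fusion complexes, was at 0.33, and Sncb, beta-synuclein of nerve terminals, at 0.29 with and 0.50 without GFP replicate 2. The list median in pairs 1 to 4 was 0.48, 0.02, 0.23 and 0.02, so 2 of the 4 pairs held most of it.

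On the receiving side of the synapse, 27 of 35 genes for receptors and scaffolds were above 0 (77.1%, against 52.3% of all tested genes, median 0.09). At an unadjusted p under 0.05 there were 6 (17.1%, against 9.76%). Without GFP replicate 2 there were 30 above 0 (median 0.13). The list median in pairs 1 to 4 was 0.22, 0.00, 0.18 and 0.03, so pairs 1 and 3 held most of it. At 4 h 6 of these genes were above 0 and 29 below, with opposite pair medians of -0.22 and 0.03. Grin1, the obligatory NMDA receptor subunit, was at 0.20 with and 0.35 without GFP replicate 2. Grm5, a glutamate receptor coupled to G proteins, stood at 21.9, 20.6, 24.0 and 23.1 scaled FPKM in GFP and at 33.6, 26.4, 27.9 and 24.4 in S40A, and did not overlap between the groups. Of 27 genes of protein kinase A and G-protein signalling, a list that holds Pkia, Prkacb and Gnai1, 23 were above 0 (85.2%, median 0.13). This list had 6 at an unadjusted p under 0.05 (22.2%, against 9.76% of all tested genes), and 21 above 0 without GFP replicate 2 (median 0.13). In that fit 5 had an unadjusted p under 0.05 (18.5%, against 11.4% of all tested genes). The list median in pairs 1 to 4 at 8 h was 0.13, 0.06, 0.24 and 0.06, above 0 in each. At 4 h 6 genes of this list were above 0 and 21 below, with opposite pair medians of -0.20 and 0.11.

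**Figure D3:**
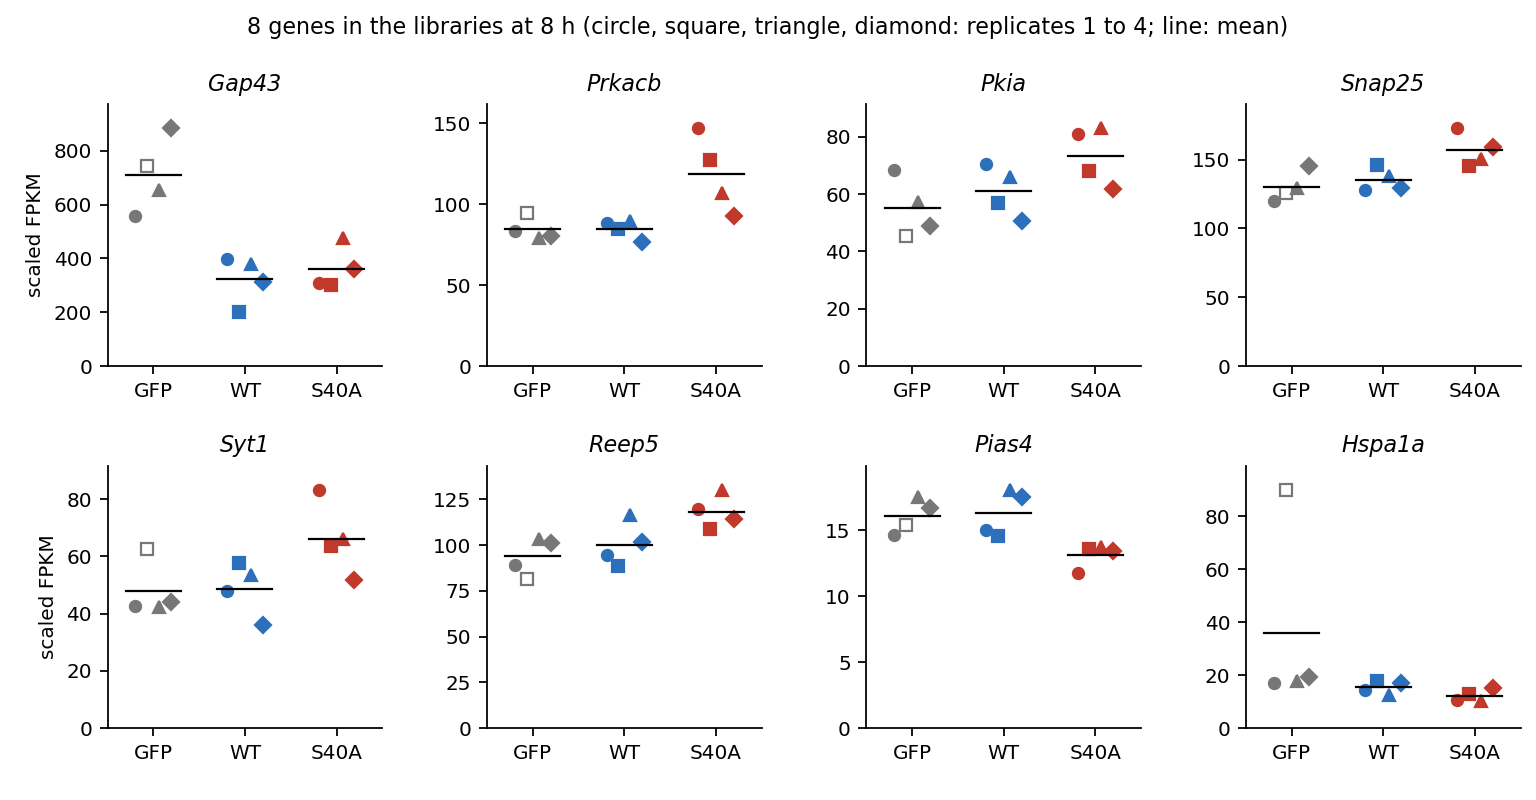
Scaled FPKM of 8 genes in the GFP, WT CREB and S40A libraries at 8 h, with circle, square, triangle and diamond for replicates 1 to 4, a line at the group mean and GFP replicate 2 as an open square. Gap43 is lower with either CREB form than with GFP, Pias4 is lower and Reep5 and Snap25 higher in each S40A library than in each GFP library, and Hspa1a shows 1 GFP library far above the rest.

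Gap43, a protein of growth cones and extending axons, was lower in every S40A library than in any GFP library. It stood at 557, 742, 653 and 885 scaled FPKM in GFP and at 309, 300, 475 and 362 in S40A. The difference was -0.97 (SE 0.23, adjusted p = 0.397), a level 0.509 times that of GFP with a 95% interval of 0.352 to 0.736, and -0.80 without GFP replicate 2. Most of its list did not share this direction in the fit, but the pairs differed. Of 29 genes of growth cones and axon extension 21 were above 0 (median 0.06), or 20 without GFP replicate 2, among them Cntn1, an adhesion protein of axons, at 0.27, and Stmn3, a regulator of microtubules, at 0.33. The list median in pairs 1 to 4 was -0.25, 0.01, 0.30 and 0.02, below 0 in pair 1 and highest in pair 3.

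Pias4, a ligase that attaches SUMO to proteins, stood at 14.7, 15.4, 17.6 and 16.7 scaled FPKM in GFP and at 11.8, 13.6, 13.7 and 13.4 in S40A. All S40A libraries were below all GFP libraries, with a difference of -0.27 (SE 0.05, adjusted p = 0.395) and -0.28 without GFP replicate 2. The 19 SUMO genes divided 9 above 0 and 10 below (median -0.02), or 6 and 13 without GFP replicate 2. Uba2, a subunit of the SUMO-activating enzyme, was at -0.12 with and -0.20 without GFP replicate 2.

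The classical depolarization-induced genes did not separate the groups. Fos stood at 675, 517, 225 and 705 scaled FPKM in GFP and at 592, 391, 516 and 692 in S40A, and Npas4, a neuron-specific activity-induced factor, at 186, 146, 32.2 and 183 and at 147, 74.7, 85.1 and 174. Replicate 3 of GFP was the lowest of the 8 libraries for both, while the other GFP libraries lay among the S40A libraries. The differences were 0.15 (SE 0.31) for Fos, 0.00 (SE 0.46) for Npas4 and 0.00 (SE 0.46) for Nr4a1, an orphan nuclear receptor, and 0.16, 0.04 and 0.00 without GFP replicate 2. Of 24 immediate early transcription factors 16 were above 0 (66.7%, against 52.3% of all tested genes, median 0.03), and 16 again without GFP replicate 2 (median 0.09). With all libraries 1 of them, Klf6, had an unadjusted p under 0.05 (4.17%, against 9.76% of all tested genes), and 0 were called. The list median in pairs 1 to 4 was -0.28, -0.48, 1.14 and 0.03. Without GFP replicate 3 the same list divided 6 above 0 and 18 below (median -0.11), and without S40A replicate 3 it divided 3 and 21 (median -0.23), so its direction rested on that pair. Atf3, a stress-induced family member, was at -0.37, and -0.53 without GFP replicate 2.

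Bdnf, a secreted growth factor, stood at 13.96, 7.13, 1.91 and 18.8 scaled FPKM in GFP and at 13.6, 5.00, 16.6 and 27.2 in S40A, with a difference of 0.66 (SE 0.50, adjusted p = 0.690) that was 0.77 without GFP replicate 2. GFP replicate 3 was again the lowest library, and over the 20 alternatives the difference ran from 0.07 to 1.09. Among 35 activity-regulated effectors, the secreted, synaptic and signalling products of the response, 22 were above 0 with all libraries and 17 without GFP replicate 2 (medians 0.06 and -0.00). Their median in pairs 1 to 4 was -0.07, -0.18, 0.33 and 0.08, highest in pair 3. Nptx2, a secreted pentraxin that gathers receptors, was at -0.23, and Dusp5, a phosphatase of MAP kinases, at -0.25. In the family of CREB itself, 7 of 15 genes, Creb1 included, were above 0. Crem, a close relative of Creb1 that CREB is known to induce, stood at 44.5, 24.2, 13.6 and 44.4 in GFP and at 45.0, 28.8, 45.1 and 52.5 in S40A (difference 0.54, SE 0.36, adjusted p = 0.666), and Creb3, a factor of the endoplasmic reticulum, was at 0.07. Crem too was lowest in GFP replicate 3, and over the alternatives its difference ran from 0.17 to 0.78.

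Of 46 known CREB targets 32 were above 0 (69.6%, against 52.3% of all tested genes, median 0.09) and 14 below. At an unadjusted p under 0.05 there were 5 (10.9%, near the 9.76% of all tested genes), 1 above and 4 below, and 0 were called. Leaving out GFP replicate 2 gave 29 above and 17 below (median 0.11), and without GFP replicate 3 they were 23 and 23 and without S40A replicate 3 they were 20 and 26. The 4 most abundant known targets with a full CRE in their promoter window are shown, with Cartpt, which has one too and had the smallest p of the list without GFP replicate 2, because they let the element be set beside the levels that follow. Each is printed 5′ to 3′ on the strand of its gene, and capitals mark the CRE. The sequences are RefSeq's on GRCm38.p6, at chr16:23890865-23890912 for Sst, chr7:45526269-45526300 for Ppp1r15a, chr1:79440067-79440114 for Scg2, chr17:26508588-26508635 for Dusp1 and chr13:99900768-99900815 for Cartpt, all on the minus strand, and the element starts 48, 12, 68, 143 and 112 bases before the gene start.
Sst: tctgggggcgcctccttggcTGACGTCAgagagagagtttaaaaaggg
Ppp1r15a: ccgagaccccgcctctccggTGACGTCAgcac
Scg2: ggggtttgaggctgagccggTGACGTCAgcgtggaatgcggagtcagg
Dusp1: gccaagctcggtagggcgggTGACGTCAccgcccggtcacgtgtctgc
Cartpt: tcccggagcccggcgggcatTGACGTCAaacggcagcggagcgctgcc

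Of these 5 genes 4 were above 0 and Ppp1r15a was below. Of all 7 known targets with a full CRE 6 were above 0 (85.7%), with and without GFP replicate 2. Of the 26 with a window but no full CRE 18 were above 0 (69.2%), or 15 without GFP replicate 2 (57.7%). The share of all tested genes was 52.3%. The median of the 7 genes in pairs 1 to 4 was 0.09, -0.55, 1.13 and 0.08, so it was far above 0 in pair 3 alone. With all libraries 0 of the 7 were higher and 1 was lower at an unadjusted p under 0.05. Only 33 of the 46 known targets had a promoter window. Sst, the peptide somatostatin, stood at 184, 180, 64.9 and 175 scaled FPKM in GFP and at 158, 122, 143 and 196 in S40A (difference 0.13). Ppp1r15a, a phosphatase subunit of the integrated stress response, was at 100.5, 121, 74.0 and 124 in GFP and at 70.7, 72.6, 73.8 and 109.9 in S40A, with a difference of -0.35 and an unadjusted p of 0.0205 by limma. Scg2, a secretory granule protein, was at 0.46 and Dusp1, a phosphatase of MAP kinases, at 0.16. Cartpt, a neuropeptide precursor, stood at 14.7, 76.4, 3.27 and 8.64 in GFP and at 92.4, 68.3, 18.4 and 10.96 in S40A. The groups overlapped widely, and its difference of 1.23 (SE 0.62) was 1.88 (SE 0.49, adjusted p = 0.401) without GFP replicate 2. Chga, a granule protein, was at 0.11 with and 0.27 without that library. Odc1, the first enzyme of polyamine synthesis, was at 26.9, 42.3, 22.6 and 28.0 in GFP and at 16.9, 16.7, 18.9 and 27.2 in S40A (difference -0.55).

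Promoters with the element were also compared over all genes. The window ran from 250 bases before to 50 after each RefSeq gene start, and 8917 of 11135 tested genes with an assigned name (80.1%) had one. The motif TGACGTCA, which reads the same on both strands, was in 1.79% of all 32851 windows. Counted by gene, 344 (3.86%) of the 8917 had it in at least 1 window, and a share of genes cannot be set beside a share of windows. Of these 344 genes 220 were above 0 (64.0%, median 0.04), against 52.9% of all genes with a window (median 0.01). At an unadjusted p under 0.05 the shares were 9.30% and 9.82%. The median of the 344 genes in pairs 1 to 4 was -0.00, -0.02, 0.12 and 0.02, highest in the pair of GFP replicate 3. Among 2953 genes with TGACG or CGTCA but no full motif 54.9% were above 0 (median 0.02). A match is a description of the letters and not a bound site.

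The enzymes of the sugar modification itself differed little between the groups. Ogt, the transferase, stood at 36.5, 22.7, 31.4 and 31.9 scaled FPKM in GFP and at 30.5, 28.3, 35.7 and 32.6 in S40A, with a difference of 0.06 (SE 0.15) that was -0.08 without GFP replicate 2. Mgea5, the enzyme that removes the sugar, was at 0.00 and Uap1, which makes the sugar nucleotide, at 0.15. Of 15 genes of the cycle 12 were above 0 with all libraries (80%, against 52.3% of all tested genes) and 7 without GFP replicate 2 (46.7%, against 52%). In either setting 0 reached an unadjusted p under 0.05, where 9.76% and 11.4% of all tested genes did. With so few genes a count of 0 says little.

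Ribosomal protein genes were the list that moved most with GFP replicate 2. Of 81 such genes 74 were below 0 with all libraries (median -0.63) and 59 without that one (median -0.08), and the median in pairs 1 to 4 was -0.26, -2.32, -0.05 and 0.14. Rpl9 stood at 246 scaled FPKM in GFP replicate 2 and between 0.179 and 0.992 in the other 7 libraries. Gapdh, a glycolytic enzyme, was at 130 in it and between 0.722 and 1.13 in the others. Most glycolytic genes divided evenly, 9 of 21 above 0 and 13 of 21 without that library. Tpi1 and Aldoa, both glycolytic enzymes, were at 0.04 and 0.18 with it and at 0.27 and 0.31 without it.

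**Figure D4:**
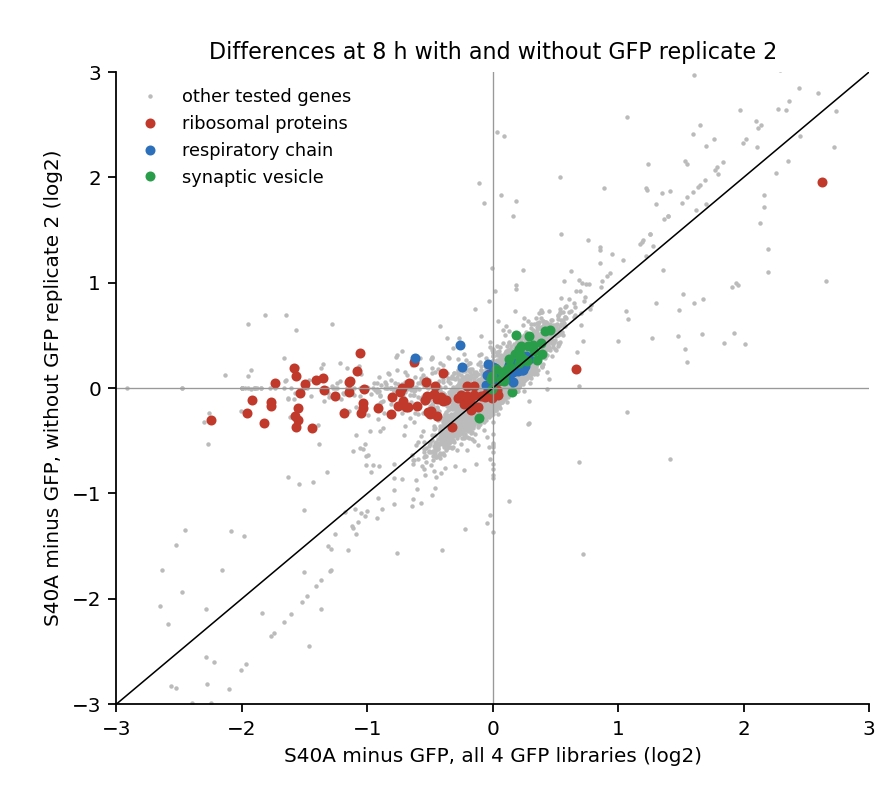
Each point is 1 tested gene other than Creb1, with its S40A minus GFP difference (log2) over all 4 GFP libraries on the horizontal axis and without GFP replicate 2 on the vertical axis, where the diagonal marks equal values and 61 genes lie beyond the limits of 3. Ribosomal proteins spread along the horizontal axis, from a median of -0.63 to one of -0.08, while respiratory chain and synaptic vesicle genes lie near or above the diagonal.

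Stress, survival and lipid genes gave small differences. Asns, a target of the integrated stress response, stood at 53.6, 58.7, 60.1 and 104 scaled FPKM in GFP and at 84.6, 74.1, 85.2 and 112 in S40A, with a difference of 0.39 (SE 0.12, adjusted p = 0.449). Each S40A library was above the GFP library of its number. The 26 genes of endoplasmic reticulum and integrated stress divided 13 to 13 (median 0.00), or 8 above 0 and 18 below without GFP replicate 2, with Canx, a chaperone of glycoproteins, at 0.16. Of 17 genes that shape the endoplasmic reticulum 11 were above 0, or 10 without GFP replicate 2, with Atl1, a membrane fusion GTPase, at 0.27. Trp53, the p53 tumor suppressor, was at 21.4, 16.8, 19.6 and 21.3 in GFP and at 16.0, 17.6, 13.8 and 17.6 in S40A, and its difference was -0.27 with and -0.40 without GFP replicate 2 (adjusted p = 0.396). Gadd45a, a target of p53, was at -0.32, in a list of 22 apoptosis genes that divided 11 to 11. Only 8 of 34 interferon and antiviral genes reached the minimum, with Stat2 and Irf9, partners in interferon signalling, at 0.11 and -0.11. Of 29 genes of sterol and fatty acid synthesis 24 were above 0 with and without GFP replicate 2 (medians 0.16 and 0.14), but their median in pair 3 was 0.98, and without GFP replicate 3 it was 0.02 and without S40A replicate 3 -0.02. Pmvk and Dhcr7, both enzymes of cholesterol synthesis, were at 0.32 and 0.16.

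**Figure D5:**
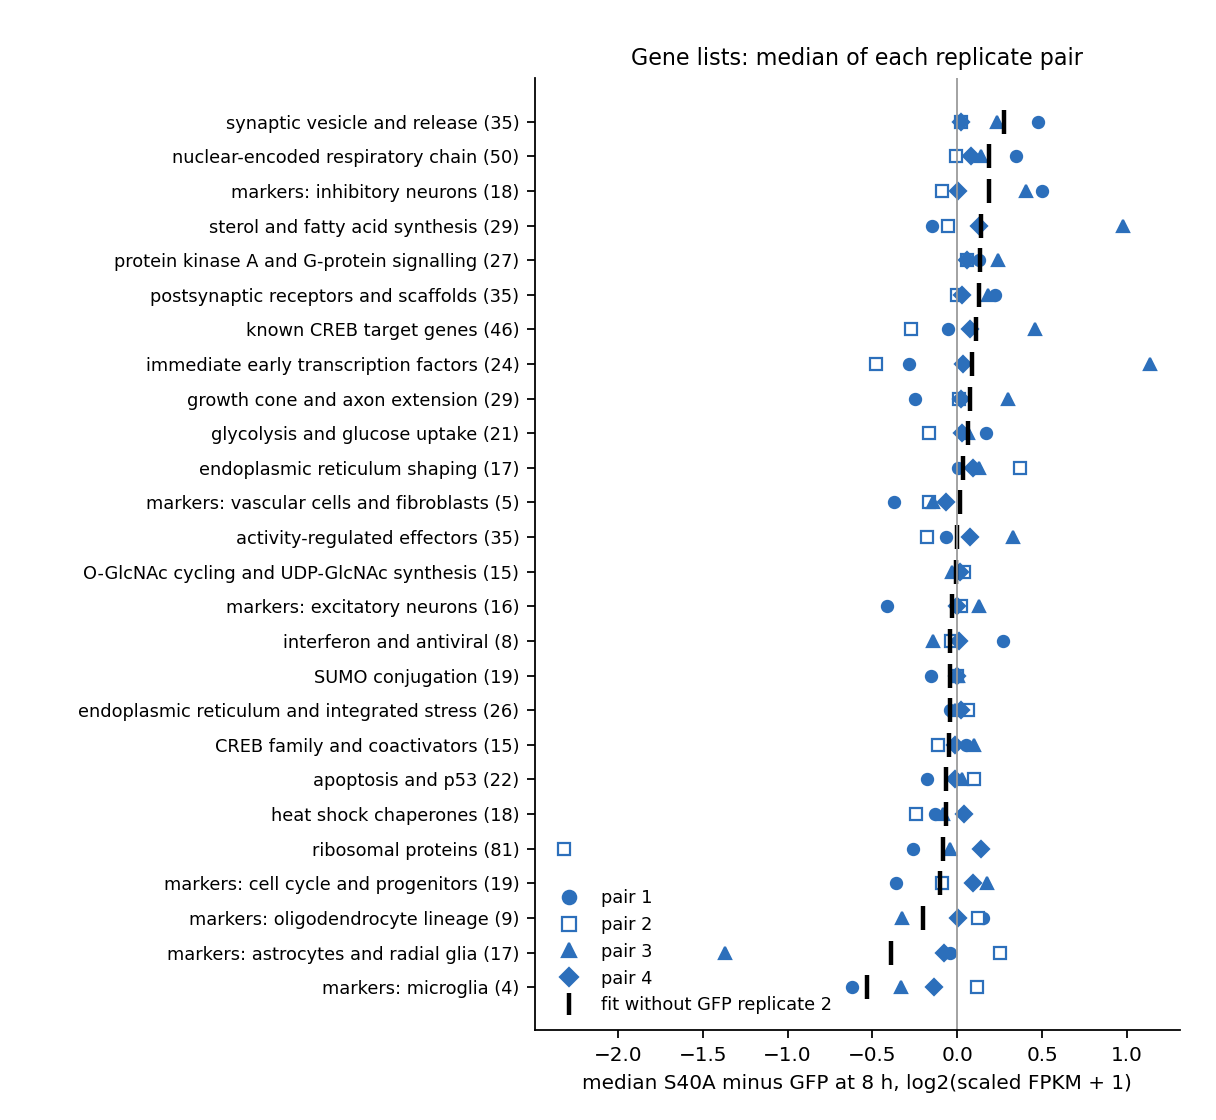
Median S40A minus GFP difference (log2) of each gene list, with the number of measured genes in parentheses, 1 marker for each replicate pair (pair 2, open, holds GFP replicate 2) and a bar for the median of the fit without GFP replicate 2. The ribosomal list stands at -2.32 in pair 2, and the immediate early, sterol and astrocyte lists stand farthest from 0 in pair 3.

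The labelled tissue was checked against its markers. Excitatory genes were abundant, with Slc17a7, a vesicular glutamate transporter, between 38.5 and 85.1 scaled FPKM in the 8 libraries, and Gad1, which makes GABA, between 35.1 and 73.4. The 16 excitatory genes divided 6 above 0 and 10 below (median -0.06), or 8 and 8 without GFP replicate 2, with Camk2a at 0.38 and Tbr1, a factor of deep-layer neurons, at -0.19. Of 18 inhibitory genes 17 were above 0 (median 0.21), or 16 without GFP replicate 2 (median 0.19), and 0 were called. Their summed level was 512 to 906 in GFP and 709 to 931 in S40A, and their median in pairs 1 to 4 was 0.50, -0.09, 0.40 and 0.01. Npy, a peptide of inhibitory neurons, stood at 22.6, 39.1, 13.1 and 14.5 in GFP and at 50.8, 32.9, 30.3 and 25.2 in S40A (difference 0.70, SE 0.39, adjusted p = 0.610). Calb1, a calcium buffer in the same list, was between 3.25 and 3.56 in GFP and between 4.51 and 6.13 in S40A. It was the only gene of the 18 without overlap, which was true of 2.02% of all tested genes in this direction. Of the list 1 gene had an unadjusted p under 0.05 (5.56%, against 9.76% of all tested genes). At 4 h 10 of the 18 were above 0 and 8 below, with opposite pair medians of -0.34 and 0.29. Reln, a secreted glycoprotein, was at 0.32. In such mixed cultures, more or fewer cells of a type and more or less RNA per cell cannot be told apart, and the part of these markers in the synaptic and signalling lists was not tested.

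Astrocyte and radial glia genes were lower, 15 of 17 below 0 with and without GFP replicate 2 (medians -0.29 and -0.39), with a summed level of 312 to 471 in GFP and 190 to 401 in S40A. Gfap, the filament of astrocytes, stood at 4.30, 19.9, 19.6 and 3.11 in GFP and at 9.03, 24.2, 1.13 and 2.35 in S40A, so GFP replicates 2 and 3 and S40A replicate 2 were high and S40A replicate 3 was low. The median was -1.37 in pair 3 and between -0.08 and 0.25 in the other pairs, and without GFP replicate 3 it was 0.00 and without S40A replicate 3 -0.10. Glul and Id3 were at -0.27 and -0.79. Of 9 oligodendrocyte genes 5 were below 0, with Olig1 at 0.15 and Mbp at -0.19. Microglial Cx3cr1 and Csf1r were at most 0.0778 and 0.170 scaled FPKM in the 8 libraries. The 4 measured genes of that list of 14 summed to 10.1 to 18.3 in GFP and 9.44 to 15.6 in S40A. The endothelial genes Cldn5 and Pecam1 were under the minimum, and Mfap2, a matrix protein, was at -0.26. Of 19 cell cycle genes 13 were below 0, with Pcna at -0.13 and Rrm2 at 0.00.

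S40A was also set against WT CREB at 8 h, whose 4 libraries had received the virus with the unaltered protein and so differ from S40A by the labels at the sugar site alone. Creb1 differed by -0.01 between the forms (95% interval -0.85 to 0.84). Limma called 0 genes for S40A against WT (0%), and 779 (6.44%) had an unadjusted p under 0.05. Gap43 differed by 0.18 between the forms (interval -0.35 to 0.72), and against the same GFP libraries it was at -0.97 with S40A and -1.16 with WT. Of genes described above, Prkacb was 0.46 higher with S40A than with WT, Pias4 0.29 lower, Pkia 0.26 higher, Reep5 0.24 higher and Snap25 0.21 higher, each with an adjusted p of 0.733 by limma. In WT against GFP these 5 genes were at 0.01, 0.02, 0.15, 0.09 and 0.06, with the GFP libraries shared by both comparisons. The respiratory chain list was above 0 in 50 of 50 genes against WT (median 0.14) and the synaptic vesicle list in 30 of 35 (median 0.25), where 51.6% of all tested genes were above 0. The S40A libraries are shared with the comparison against GFP, so neither these list counts nor the differences of these 5 genes are independent of those given above. Pkia and Reep5 were also chosen for a small p against GFP, which favours a difference from WT in the same direction. The values therefore do not by themselves show an effect particular to S40A.

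At 4 h, in separate libraries with 2 replicates each, Creb1 was at 11.8 and 15.7 scaled FPKM with GFP and at 234 and 268 with S40A, a difference of 4.11 (adjusted p = 0.0151 by limma). With it 8 entries were called (0.0661%), the other 7 being small RNA entries of at most 98 bases, and 359 (2.97%) had an unadjusted p under 0.05. Of the 35 synaptic vesicle genes 7 were above 0 at 4 h (median -0.10), against 51.5% of all tested genes, but the medians of the 2 pairs were -0.30 and 0.10, opposite in direction. The respiratory chain list was above 0 in 40 of 50 (median 0.05), again with opposite pair medians of -0.16 and 0.23. Prkacb, Pkia, Reep5 and Snap25 were at -0.09, -0.03, -0.10 and -0.10 at 4 h, each below 0 in pair 1 and above 0 in pair 2. A test of the difference between the times called 2 entries (0.0165%), both small nucleolar RNAs, and gave an adjusted p of 0.948 for each of these 4 genes, so a difference between the times was not shown for them.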

How the data were processed

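Messenger RNA libraries were sequenced from 22 samples, of which the 4 S40A and 4 GFP libraries at 8 h are compared here, with 4 WT libraries at 8 h and 4 libraries at 4 h beside them. The authors deposited FPKM values per gene with their 95% bounds, and FPKM corrects for gene length and library depth. Per the submitters' processing notes, CASAVA 1.7, Bowtie 0.12.2 and Cufflinks were used, and the builds mm8 and mm10 are named without a role; the gene positions in the files fall on mm10. The files hold no read counts.

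Values were scaled by median-of-ratios factors (0.944 to 1.12), 21 entries with a failed estimate were removed, and the minimum for a test was an average of 1 FPKM across all 22 libraries. Tests used limma 3.58.1 (R 4.3.3) on log2(scaled FPKM + 1) with a mean-variance trend, Benjamini-Hochberg adjustment over 12097 genes, the GFP, WT and S40A libraries at 8 h together for 1 estimate of spread, and the replicate number as a block. The 4 h test was fitted in the same way on the 6 GFP, WT and S40A libraries at 4 h, and the test between times on these and the 12 libraries at 8 h. The fit was tested on simulated data with independent normal noise for each gene and no outlier library. Of 50 changed genes at each size, 42% were called at a log2 size of 0.5 and 80% at 1. At sizes of 2 and 4 the share was 98%, and 5 unchanged genes were called. These data hold GFP replicate 2, so the simulation does not measure what the fit recovers here. Tables and figures used pandas 2.3.3 and numpy 2.4.6 under Python 3.11.15, and matplotlib 3.10.9.

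Named genes were Creb1, the 12 higher and 12 lower with the smallest p without GFP replicate 2 among genes of at least 300 bases, at least 5 scaled FPKM and 1 sign in all 4 pairs, the 2 members of each list of at least 5 scaled FPKM with the smallest p in that fit, 16 genes fixed by name, and the 4 most abundant known targets with a full CRE; 4 genes that this rule names are not reported here. Uqcrfs1, Grm5, Calb1, Stmn3, Odc1, Slc17a7, Gad1 and Gfap were added after their values were seen. The members and lists were chosen with earlier results of these data known. Alternatives varied the block, the libraries fitted, the pseudocount, the filter, the scaling, the moderation, the library weights and each library left out.

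The replicate numbers were checked for pairing. The deviations of same-numbered S40A and GFP libraries from their group means correlated at -0.11, 0.189, 0.11 and 0.577 for replicates 1 to 4. S40A and GFP libraries of unlike numbers correlated at -0.376 to 0.359. For GFP and WT the same-numbered values were 0.615, 0.066, 0.509 and 0.371. For S40A and WT they were -0.094, -0.051, 0.495 and 0.436. The data thus do not show that every number pairs the samples, and the block was kept because the comparison pairs them by number.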

Additional observations from a re-analysis of the deposited data

Results flagged for a closer look

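Of 152 groups of 4 libraries (76 named genes in S40A and in GFP), 14 held a library whose gap to the nearest other was above Dixon's 95% critical share of the range of its group, where chance gives about 5%. In 10 of them the library was GFP replicate 2. It was the lowest for Uba2 (35.6 scaled FPKM) and Canx (77.5), and the highest for Hspa1a (90.0), Cartpt (76.4), Ndufs3 (46.9), Syt1 (62.6), Rps6 (71.4), Rpl37a (150), Gapdh (130.2) and Rpl9 (246). GFP replicate 4 was the highest for Atf3 (65.1) and Asns (104), S40A replicate 3 the highest for Timm10b (12.8), and S40A replicate 1 the lowest for Pias4 (11.8).

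For 2 small nucleolar RNA entries, the S40A minus GFP difference at 8 h differed from that at 4 h by limma. Snord92 (chromosome 17, 71631279 to 71631361) was at 52.9 and 62.7 scaled FPKM in GFP and listed at 0 in S40A at 4 h, and was listed at 0 in all 8 libraries at 8 h, with a difference between times of 5.87 (adjusted p = 1.48e-08). Snord73a (chromosome 3, 86138791 to 86138858) was listed at 0 in GFP and at 179 and 164 in S40A at 4 h, and at 0 in all 8 libraries at 8 h, with a difference of -7.43 (adjusted p = 9.65e-10). Each entry was tested only because of libraries in which it was high, and groups listed at 0 throughout show no spread. The 2 p-values therefore do not by themselves show an effect that differs between the times.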

How the results depend on the processing

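Creb1 kept its direction in all 20 alternatives for all 8 libraries, at 6.00 to 6.72, and was not called in 1 of them, where the 8 libraries were fitted alone (6.38, adjusted p = 0.223 by limma). That fit called 2 other entries, Mir6972 and Mir7012, and leaving out 1 library gave 1 to 3 calls and a Creb1 difference of 6.02 to 6.72. Without the replicate block Creb1 had an adjusted p of 0.000268 and 678 genes had an unadjusted p under 0.05 against 1181 with it, or 779 against 1380 without GFP replicate 2. With replicates 1 and 2 against 3 and 4 as the term in place of the pairing there were 727 and 867, with estimated library weights 2052 and 2345, and with 1 library left out 838 to 1380 and 592 to 1674. On FPKM as deposited 417 were higher and 705 lower at that p, against 716 and 465, and without GFP replicate 2 these were 599 and 647, against 796 and 584. By quantile normalization that last split was 672 and 686.

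Without GFP replicate 2, the remaining libraries alone gave 2 calls and 676 genes at an unadjusted p under 0.05, fitting without a filter gave 2 calls, and leaving out 1 more library, an alternative chosen after seeing the data, gave 0 to 3. Creb1 was then not called without GFP replicate 1 (adjusted p = 0.142) or 3 (0.0548) or S40A replicate 1 (0.264), 2 (0.316), 3 (0.158) or 4 (0.0658), and was called without GFP replicate 4 (0.00299). S40A against WT gave 0 to 2 calls and S40A against GFP at 4 h gave 27 to 43 with 1 library left out. Genes with 1 sign in all pairs numbered 2125 with 4 pairs and 3634 with the 3 pairs that lack GFP replicate 2.

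These named genes changed sign in at least 1 alternative. On FPKM as deposited Mgea5 was at -0.0394, Tpi1 at -0.0067, Rrm2 at -0.0372, Npas4 at -0.042 and Nr4a1 at -0.0424. With library weights Mgea5 was at -0.0208, Ndufs3 at 0.20, Stat2 at -0.0016 and Pcna at 0.10, and with a pseudocount of 5 Rrm2 was at -0.0081, Npas4 at -0.0127 and Nr4a1 at -0.0056. With 1 library left out the range was -0.40 to 0.0418 for Nptx2, -0.0415 to 0.034 for Mgea5, -0.16 to 0.23 for Ndufs3, -0.0928 to 0.27 for Tpi1, -0.36 to 0.074 for Tbr1, -0.48 to 0.25 for Mbp, -0.28 to 0.15 for Pcna, -0.14 to 0.19 for Rrm2, -0.17 to 0.41 for Fos, -0.41 to 0.44 for Npas4, -0.49 to 0.36 for Nr4a1 and -0.0807 to 0.16 for Ogt. The cause of these shifts was not tested, except that fewer libraries were fitted in the last. The files give no read counts, so depth limits the low genes by an amount that is only implied.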

Other observations

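The vacuolar proton pump and RNA processing groups were gathered by symbol after their values were seen and so support nothing by themselves. Of 19 measured subunits of the pump, which acidifies synaptic vesicles and lysosomes, 13 were above 0 in S40A and 5 below, 1 being listed at 0 in all 8 libraries, with a median of 0.16 and 9 at an unadjusted p under 0.05 (47.4%), against 9.76% of all genes tested. Without GFP replicate 2 there were 16 above and 2 below, 11 of them at that p (57.9%, against 11.4%). Atp6v1a, a catalytic subunit, stood at 56.5, 51.4, 59.7 and 59.1 scaled FPKM in GFP and at 76.3, 64.4, 70.8 and 66.0 in S40A, and the groups did not overlap. At 4 h, in separate libraries, 4 of the list were above 0 and 15 below, with opposite medians of -0.22 and 0.12 in the 2 pairs. Of 65 RNA processing factors 49 were below 0 at 8 h (median -0.08), 57 without GFP replicate 2 (median -0.11), and 7 at 4 h, where the pair medians were 0.10 and 0.06. At 8 h they were -0.27, -0.02, 0.01 and -0.00, so pair 1 held most of the shift.

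Short entries swung between 0 and high values. Mir7012, of 64 bases within Dennd4b, was listed at 0 in all 4 GFP libraries and at 155, 371, 367 and 251 scaled FPKM in S40A, and in WT at 0 in 3 libraries and at 266 in replicate 4. At 4 h Mir7012 was at 0 and 0 in GFP and at 280 and 0 in S40A. Mir6972, of 64 bases within Cfb, was at 360.2, 173, 240.0 and 320.2 in GFP and listed at 0 in all 4 S40A libraries. In WT replicates 1 to 4 Mir6972 was at 0, 0, 651 and 291, and at 4 h it was at 0 and 0 in GFP and at 0 and 267 in S40A. In the fit of the 12 libraries at 8 h neither was called (adjusted p = 0.395 and 0.397 by limma), and in the fit of the 8 libraries alone both were (0.011 for Mir7012 and 0.00855 for Mir6972). Each entry was tested only because of libraries in which it was high, and the group listed at 0 throughout shows no spread. The p-values of the 8 libraries alone therefore do not by themselves show a difference.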
